A study of Triticum aestivum with 12 samples.

Results

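The transcripts described here are the 200 genes of bread wheat (Triticum aestivum) leaves whose share of the sequenced library varied least over 12 RNA-seq libraries. For each gene the count was divided by the library total and scaled to CPM, the usual share of the library total. The 200 genes of highest mean CPM over the 6 fully irrigated libraries were left out. Of the remaining genes, 5054 had a mean CPM of at least 20 over the 12 libraries, and the 200 of lowest coefficient of variation (CV, the SD as a percentage of the mean) were taken. They are 200 of 99386 gene identifiers in the count table, of which 75198 had any count.

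The plants were wild type, of the variety Chinese Spring L42, and all 12 libraries came from leaves. Fully irrigated plants received 180 ml of water and drought-stressed plants 30 ml, both 2 times a week, in pots first brought to their water retention limit. The leaves were sprayed with water alone or with 0.5% LRM, a microalgal biostimulant, the day after planting and every 14 days. The 4 groups (irrigated water, drought water, irrigated LRM, drought LRM) had 3 libraries each, numbered 1 to 3, and values below are always given in that order. No plant age at sampling is given in the sources used here. Nothing in the labels says whether replicates were separate plants or pools, so the p-values measure only the spread between these libraries.

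Library totals ran from 17541561 counts (drought LRM 2) to 47305447, so 1 CPM was about 17.5 counts in the shallowest library and the floor of 20 CPM about 351. The 200 most abundant genes took 40.5% to 43.5% of the counts in the drought LRM libraries and 45.1% to 50.3% in the other 9. Irrigated water 1 had a TMM factor (trimmed mean of M values, edgeR's correction for such shifts in composition) of 1.08, against 0.923 and 0.910 in its group. No file or table used here pairs the wheat identifiers with gene names, so neither the known reference genes nor leaf markers could be looked up, and no member has a stated function.

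Transcripts of steady level are used as internal standards in quantitative PCR, where the signal of a gene of interest is divided by that of the standard. Genes for protein synthesis, the cytoskeleton, protein turnover and basic metabolism are the usual candidates, and each is checked in the tissue and stress at hand because drought changes many of them. In sequencing data a gene's CPM is a share of the library. It can therefore hold steady while the amount per cell changes, and it moves when the most abundant transcripts take more or less of the library. In whole leaves, a change in the cells that carry a transcript and a change in transcript per cell cannot be told apart.

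Wheat is hexaploid, and most genes exist as near-identical sets of copies, 1 for each of the genomes A, B and D. How the counting treated reads that match several copies, and whether it used strand, is not given in the sources used here, so the level of a single copy is uncertain.

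Among the 200 genes the CV ran from 3.09% to 6.58%, with a median of 5.82% and quartiles of 5.19% and 6.20%. Over all 5054 genes that met the abundance limits the median was 15.0% and the highest 239%. These CVs chose the genes and are given as a description.

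The gene of lowest CV was Traes_7BL_F7E745685, on the long arm of chromosome 7B as its identifier gives it, with a CV of 3.09%. Its CPM was 205, 214 and 205 in irrigated water, 202 to 212 in drought water, 208 to 216 in irrigated LRM, and 220.1, 225 and 215 in drought LRM. All 12 values lay between 202 and 225, and the drought LRM libraries overlapped with irrigated LRM only at the bottom of their range.

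Traes_6DS_C2E0F7B0F, on the short arm of 6D, had a CV of 3.15% and the highest mean CPM of the 200, 639. Its CPM was 654, 639 and 617 in irrigated water, 641, 644 and 627 in drought water, 651, 648 and 664 in irrigated LRM, and 596, 661 and 620.2 in drought LRM. The lowest and the second highest of the 12 values were both from drought LRM.

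Traes_7DS_BB0ADF07C had a CV of 3.31%, and its CPM was 45.3, 45 and 45.6 in irrigated water, 46.1, 48.4 and 46.1 in drought water, 47.1, 47.5 and 47.5 in irrigated LRM, and 43.8, 49.1 and 47.7 in drought LRM. Irrigated water lay below irrigated LRM without overlap, while drought LRM held both the lowest and the highest library. The next lowest were Traes_7DL_9521D3D43, with a CV of 3.96% and a CPM of 165 to 187, and Traes_2DL_29112E9BD, with a CV of 4.02% and a CPM of 372 to 425. In the first of these every group overlapped with every other. In the second the 2 lowest libraries were drought LRM 2 and 3, at 372 and 374, and the highest was irrigated LRM 1.

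**Figure D1:**
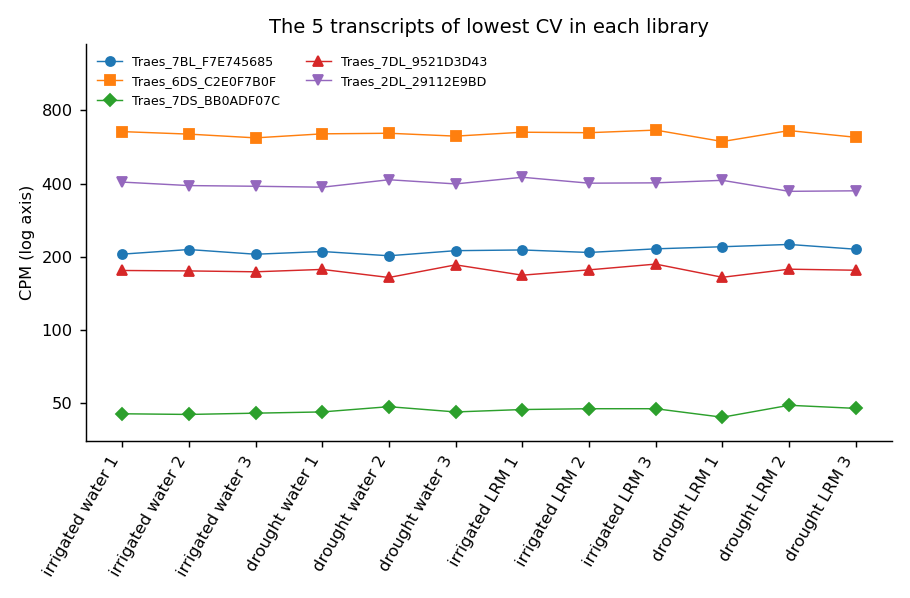
CPM (log axis) in each of the 12 libraries for the 5 genes of lowest CV, with 1 line and marker shape a gene and the libraries in group order along the x axis; lines only join the points of a gene. Traes_7BL_F7E745685 stays between 202 and 225 CPM and Traes_6DS_C2E0F7B0F between 596 and 664.

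At the other end of the range, Traes_4BS_544C6E28B and Traes_2BL_E31A49937 were the last genes taken, at a CV of 6.58% each. The first genes not taken were Traes_2DS_D106620BE at 6.59% and Traes_5AL_027DD2E07 at 6.60%. The limit therefore falls in a continuous range of CVs.

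The mean CPM of the 200 genes ran from 20.2 to 639 with a median of 48.0, against 37.7 for the 5054 genes, whose highest was 1407. Divided by mean CPM into 5 equal parts, the 5054 genes gave 33, 26, 34, 46 and 61 of the 200, from the least to the most abundant, while the median CV over all genes was between 14.7% and 15.3% in each. Per length, in the deposited FPKM values (a level scaled to gene length and library size), their median level was 30.7 and ran from 4.73 to 1724, against a median of 23.6 for the 5054. The gene length that the FPKM and count values together imply had a median of 1751 bases, close to the 1758 bases over the 5054.

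The least abundant of the 200 was Traes_5DL_AF01E9D7B, at a mean CPM of 20.2. Its CPM was 21.3, 19.7 and 19.7 in irrigated water, 19.8, 19.6 and 20.4 in drought water, 23.3, 21.0 and 20.9 in irrigated LRM, and 18.5, 19.5 and 18.8 in drought LRM. Drought LRM lay wholly below irrigated LRM. Traes_6AS_27483C00F, the second most abundant, had a mean CPM of 637 and ran from 563 in drought LRM 1 to 672 in irrigated LRM 3.

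By the chromosome in the identifier, 62 of the 200 lay on the A genome, 67 on B and 71 on D, which is 31%, 33.5% and 35.5%. Of the 5054 genes, 31.5%, 36.1% and 32.3% did. The genes came from 38 of the 41 chromosome arms (3B is not split by arm) that held any of the 5054. Chromosome 2A had the most, 17, and 7A and 3D the fewest, 2 and 3.

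A pair of identifiers, Traes_3B_1CCD0D3E31 and Traes_3B_1CCD0D3E3, differ only in a final digit, imply the same length of 1485 bases and ranked 55 and 56 by CV. Their CPM in irrigated water was 61.4, 64.2 and 66.4 for the first and 63.7, 66.1 and 68.0 for the second. In drought water 2 both were at their lowest, 55.5 and 57.1. They may share reads and are uncertain as separate genes.

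**Figure D2:**
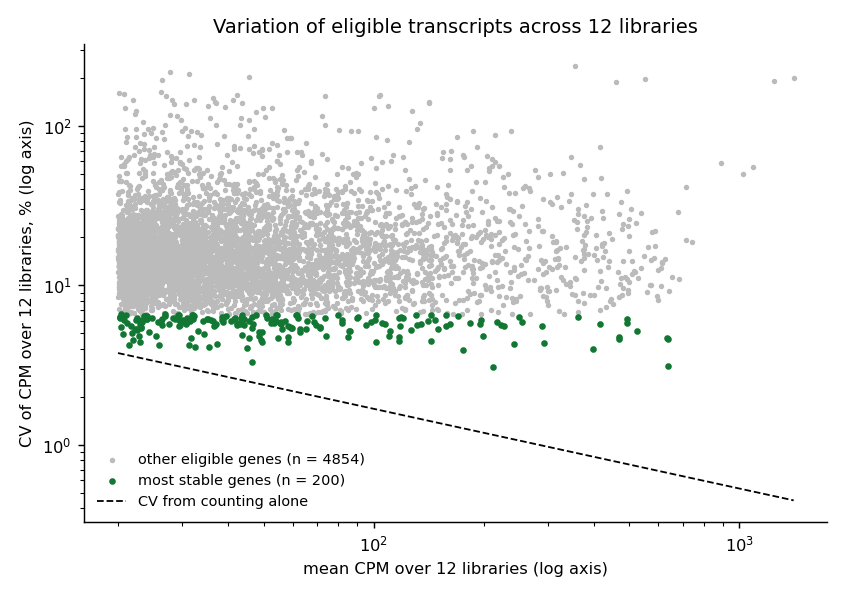
CV of CPM over the 12 libraries (percent, log axis) against mean CPM (log axis), 1 point a gene, for the 200 genes (most stable) and the other genes within the abundance limits (eligible), with a dashed line for the CV that counting alone gives. The 200 lie at or below 6.58% at every level from 20.2 to 639 CPM, and all lie above the dashed line.

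Part of each CV is counting error. From the counts alone, the expected CV of the 200 had a median of 2.43%, between 0.667% and 3.75%. The observed CV was 1.17 to 8.15 times that, with a median of 2.36 times, whereas the median over the 5054 genes was 5.83 times. With the counting part removed the median CV of the 200 was 5.18%. In 16 of the 200 the CV was below 1.5 times the counting CV. The choice lets no other gene among the 5054 be so. Their CVs began at 6.59%, and the counting CV was at most 3.77%. The closest of the 200 to counting alone was Traes_5DL_CA09C31F9, with a CV of 4.24% against 3.64% from counting and a CPM of 20.4 to 23.1.

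The highest library was 1.11 to 1.32 times the lowest for each of the 200, with a median of 1.21 times. Over the 5054 genes that median was 1.64. For 199 of the 200 the ratio was below 1.3. The exception was Traes_1BL_B4D955976, at 17.6 CPM in drought LRM 1 and 23.2 in irrigated water 1.

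The spread of libraries within groups and that of group means are not like for like, since means of 3 libraries vary less than single libraries. The CV within groups had a median of 5.13% and that between the 4 group means 3.75%, against 10.4% and 12.6% over the 5054 genes. The groups accounted for a median of 36.3% of the variance of the 200, between 2.04% and 85.2%, and for 64.0% over the 5054 genes. When nothing differs, 4 groups of 3 take on average 27.3%. Since low variance over all libraries chose the genes, these shares are a description.

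Summed over the 200 genes, the share of the library was 1.78% to 1.89%. It was 1.82% ± 0.0286 (SD, n = 3) in irrigated water, 1.84% ± 0.0150 in drought water, 1.85% ± 0.0359 in irrigated LRM and 1.82% ± 0.0365 in drought LRM. These ranges overlap, and the rule holds them close.

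Irrigated water 1 was more than 10% away from a gene's mean for 27 of the 200 genes and drought LRM 1 for 26. In drought water 1 it was 2. The highest of the 12 values fell most often in irrigated water 1, for 33 genes (16.5%), and the lowest most often in drought LRM 1, for 40 genes (20%). Those libraries had about the same shares over the 5054 genes, 16.6% and 20.0%. Among groups, irrigated LRM had the highest mean for 67 genes, drought LRM for 55, irrigated water for 49 and drought water for 29. Over the 5054 genes, drought LRM had the highest mean for 48.2%.

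**Figure D3:**
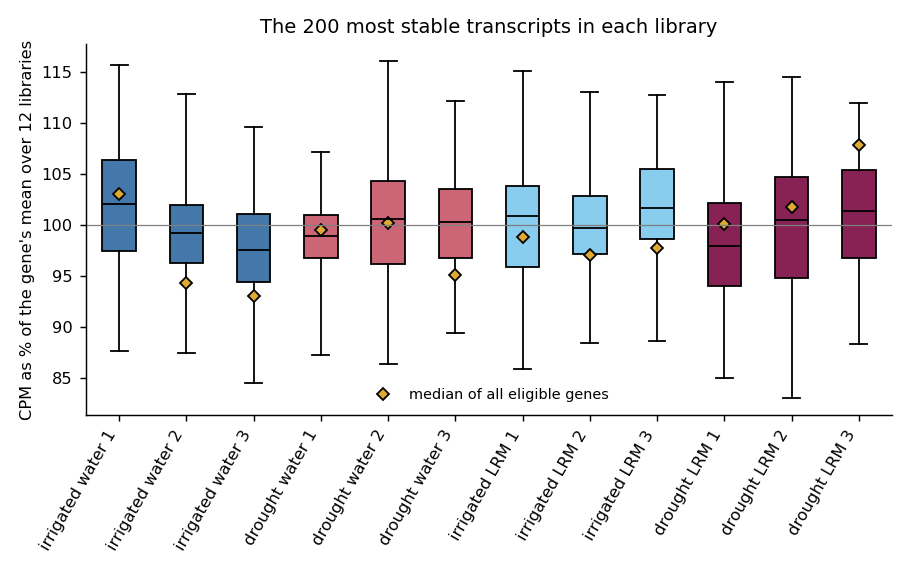
CPM of each of the 200 genes as a percentage of that gene's mean over the 12 libraries, with boxes for the median and quartiles, whiskers to the lowest and highest gene, colours for groups, and diamonds for the median of the 5054 genes within the abundance limits (eligible). The medians of the 200 stay between 97.6% (irrigated water 3) and 102.0% (irrigated water 1), while the diamonds run from 93.0% (irrigated water 3) to 107.9% (drought LRM 3).

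The question the design puts to these genes is whether they respond to drought, with either spray, and to LRM, with either watering. It was asked with edgeR's quasi-likelihood test over all 57226 tested genes, with Benjamini-Hochberg adjustment and a threshold of 0.05. All 200 passed the filter on low counts. The rule used the same libraries, so nothing is read from the counts of calls among the 200 on any scale.

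With water spray, none of the 200 passed the edgeR test for drought, where 0.83% of all tested genes and 3.01% of the 5054 did. At an unadjusted p under 0.05 there were 2, against 11.4% of all tested genes, and DESeq2, which called 3.12% of the genes it tested, called 0. The median log2 fold change was -0.04 and the largest in size 0.22. CPM did not overlap between drought and irrigated libraries for 39 genes (27 higher, 12 lower, or 19.5%), against 22.4% of the 5054.

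The highest fitted change was in Traes_6DS_11D3FDCC9, with a CPM of 36.2, 36.1 and 34.5 under irrigation and 40.3, 41.7 and 40.1 under drought. All 3 drought libraries lay above all 3 irrigated ones, and the log2 fold change was 0.16 (SE 0.10, edgeR adjusted p = 0.598). Traes_2AL_7EABAC855 gave 345, 364 and 329 CPM against 377, 408 and 386, also without overlap, and a log2 fold change of 0.14 (adjusted p = 0.694). The lowest was in Traes_7DL_9460C0687, with 41.3, 40.0035 and 41.9 CPM under irrigation and 36.3, 35.9 and 36.5 under drought. Its drought libraries all lay lower and its log2 fold change was -0.22 (SE 0.10, edgeR adjusted p = 0.425). Traes_5DL_E34967923 went from 28.5, 28.8 and 28.6 to 26.1, 23.7 and 26.1 CPM, with a log2 fold change of -0.22 (adjusted p = 0.434).

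With LRM spray, 14 of the 200 fell under drought by edgeR and 0 rose, where 17.2% of all tested genes passed (8.6% of all tested genes lower) and 42.9% of the 5054 passed (26.4% of the 5054 lower). At an unadjusted p under 0.05 there were 69 of the 200, against 29.5% of all tested genes and 58.3% of the 5054. The edgeR count was 4 without irrigated LRM 1 or irrigated LRM 2, 3 without irrigated LRM 3, 8 without drought LRM 2 and 2 without drought LRM 3. Over all tested genes (58496 to 58832) the calls under these omissions were 8123, 6745, 7228, 8464 and 7858 in that order, against 9869 of 57226. DESeq2 called 37 of the 200, all lower, the 14 among them. It called 18% of the genes it tested and 2498 of the 5054. The median log2 fold change of the 200 was -0.17 and the largest in size 0.38. The median over the 5054 genes was -0.09. In CPM, 46 genes did not overlap between drought and irrigated libraries (18 higher, 28 lower, or 23%), against 58.7% of the 5054.

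The lowest was Traes_2AL_A2CBECA65, with a CPM of 96.9, 96.9 and 96.6 in irrigated LRM and 81.6, 84.4 and 82.9 in drought LRM. The groups did not overlap, and the log2 fold change was -0.38 (SE 0.10, edgeR adjusted p = 0.0219). In irrigated LRM the SD was 0.182 CPM at a mean of 96.8. That is narrower than counting error gives on average (a counting CV of 1.77% for this gene), so the gap is not judged against it. By library totals the log2 fold change was -0.22 (edgeR adjusted p = 0.0860). Without drought LRM 3, irrigated LRM 2 or irrigated LRM 3 the gene no longer passed with TMM scaling, at adjusted p = 0.078, 0.0649 and 0.0644. Traes_6AL_36AB0312C fell from 270.2, 269 and 266 CPM to 236, 227 and 238, without overlap, with a log2 fold change of -0.36 (SE 0.09) and adjusted p = 0.0112 in edgeR. Both genes are extremes of a set chosen on these same libraries, so their p-values are given only as a description. The highest fitted change was in Traes_5DS_3FA446382, with 88.6, 99.4 and 96.2 CPM in irrigated LRM and 101, 105 and 113 in drought LRM. Those CPM values did not overlap and were higher under drought, yet the log2 fold change was 0.01 (edgeR adjusted p = 0.976).

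That gap between CPM and the fitted change comes with the scaling. The TMM factors that edgeR applies were 1.04, 1.06 and 1.14 in drought LRM and 0.953 to 0.979 in irrigated LRM, so a gene of equal CPM is fitted as lower in drought LRM. By TMM-scaled group means, 196 of the 200 had a drought log2 ratio below 0 with LRM spray. By library totals 110 were below 0 and 90 above, with a median of -0.01, and 0 passed in edgeR, where 17.0% of all tested genes did. The median over all tested genes moved by 0.16 on the log2 scale between the 2 scalings for this comparison, a shift that every gene shares. Ratios near 0 by library totals are set by the rule, which took flat CPM over these libraries, and show nothing of their own about the 200.

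Summed over the 200 genes, TMM-scaled CPM was 18803 ± 1553 (SD, n = 3) in irrigated water, 18555 ± 892 in drought water, 19138 ± 628 in irrigated LRM and 16928 ± 675 in drought LRM. In plain CPM, which the rule held flat, the sums with LRM spray were 18473 ± 359 and 18243 ± 365. Which scale tracks the amount of RNA per leaf cell was not measured, since the sources used here name no spike-in.

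For LRM with full irrigation, none of the 200 passed in edgeR, where 0.0% of all tested genes did. At an unadjusted p under 0.05 there was 1, against 8.70% of all tested genes. DESeq2 called 0 of the 200 and 1.01% of the genes it tested, and the median log2 fold change was 0.02. CPM did not overlap for 43 genes (27 higher, 16 lower), or 21.5%, against 18.4% of the 5054.

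Under drought, 0 passed for LRM in edgeR, where 8.49% of all tested genes and 25.8% of the 5054 did. At an unadjusted p under 0.05 there were 25, against 22.1% of all tested genes, and DESeq2 called 5, all lower, and 10.3% of the genes it tested. The median log2 fold change was -0.12 (0.0034 by library totals), and 41 genes did not overlap in CPM (21 higher, 20 lower), or 20.5%, against 50.7% of the 5054. For the difference of the drought changes between sprays, 0 passed in edgeR, 18 were at an unadjusted p under 0.05, against 12.9% of all tested genes, and DESeq2 called 3, all lower. Over all tested genes edgeR called 0.851%, over the 5054 it called 3.19%, and DESeq2 called 4.99% of the genes it tested. The median of this difference was -0.13 on the log2 scale. The drought and LRM comparisons share libraries and are not independent of each other.

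**Figure D4:**
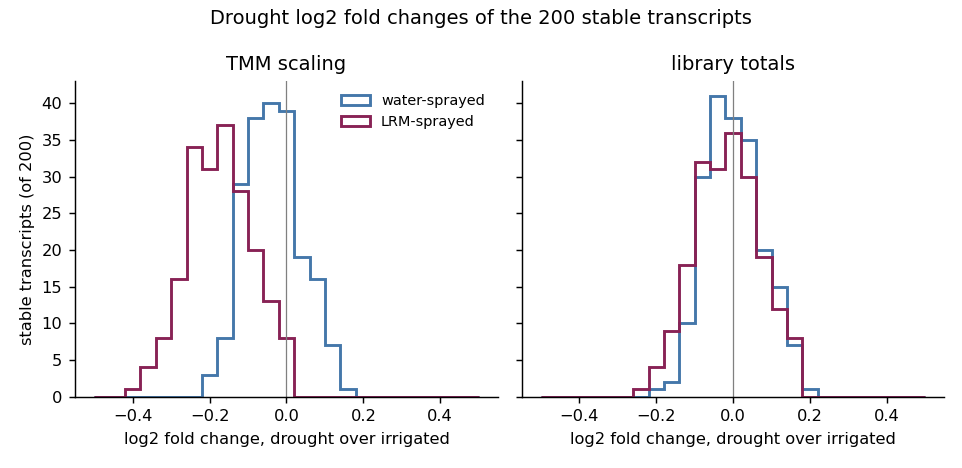
Histograms of the drought log2 fold change of the 200 genes in edgeR, water-sprayed and LRM-sprayed, with TMM scaling on the left and library totals on the right; the y axis counts genes. With LRM spray the median is -0.17 by TMM and -0.01 by library totals, while the water-sprayed histograms lie near 0 in both panels.

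Steady by one scale, the genes were less so by the other. Measured on TMM-scaled CPM, the CV of the 200 had a median of 8.47% and ran from 3.27% to 12.2%. Only 34 of them would be taken by the same rule on TMM-scaled values, and 31 on DESeq2's. Their median rank by TMM-scaled CV was 747 of the 5037 genes within the abundance limits on that scale, and the last, Traes_2AL_A2CBECA65, ranked 1890. Traes_7BL_F7E745685, first by CPM, ranked 300 with a TMM-scaled CV of 6.72%.

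One gene that was steady on both scales was Traes_7DS_7EECD7F6A, which ranked 8 by TMM-scaled CV, at 3.63%. Its CPM was 44.2, 42.8 and 40.9 in irrigated water, 46.8, 47.2 and 42.8 in drought water, 42.2, 42.5 and 41.3 in irrigated LRM, and 45.1, 46.8 and 49.5 in drought LRM. In CPM the drought LRM libraries lay above irrigated LRM without overlap, and the TMM-scaled log2 fold change was 0.01 (edgeR adjusted p = 0.973).

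The 200 genes that TMM scaling takes in their place had a median CV of 5.37% on that scale and 8.73% in CPM. In CPM, 196 of those 200 were higher in drought LRM than in irrigated LRM, with a median log2 ratio of 0.17, the counterpart of the shift in the first 200. With the summed counts of the first 200 as library sizes, which the rule keeps close to the library totals, edgeR called 10246 of the 57226 genes (17.9%) for drought with LRM spray, 7411 of them higher. TMM gave 9869 calls, of which 4949 were higher, and library totals gave 9733, of which 6795 were higher. With water spray the calls were 387 and, by TMM, 475.

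A choice made on 6 libraries can be measured in the other 6, which took no part in it. The rule was applied to the 6 water-sprayed, the 6 LRM-sprayed, the 6 irrigated and the 6 drought libraries in turn. Both abundance limits, including the 200 most abundant genes left out, were set on the 6 choosing libraries. Each set of 200 was tested in the libraries left over, by edgeR fitted to those libraries alone. A CV that was lowest by choice is larger elsewhere through the choice alone. The CV in the new libraries is therefore read only against that of all genes within those limits, measured in the same libraries.

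Genes chosen as steady over drought with water spray had a median CV of 9.08% in the LRM libraries, where it was 15.6% for all genes within the abundance limits. In the water libraries that chose them it was 3.73%, against 11.3%. By edgeR, 53 of the 200 changed under drought with LRM spray, 51 lower and 2 higher. That is 26.5%, against 39.8% of the genes within the limits and 15.6% of all tested genes. These shares pool both directions. Within the limits 1958 of 4921 genes passed, 668 of them higher. With this choice and TMM scaling the gap therefore lies mostly in genes that rose. The median log2 fold change in size was 0.22 against 0.31. By library totals 14 of the 200 were lower and 4 higher, against 1933 of the 4921 called, 1049 of them higher. There the gap lies in both directions.

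The count of 53 became 14 without irrigated LRM 2, 14 without irrigated LRM 3, 27 without drought LRM 3, and 18 by library totals. The 39.8% of the genes within the limits became 25.1%, 27.5%, 32.0% and 39.3% in these settings, in the same order. DESeq2 called 68 of the 200, against 15.3% of the genes it tested and 46.2% of those within the limits. Chosen by TMM-scaled CV instead, 7 of 200 (3.5%) were called, 5 of them higher. The 2 that rose in the first choice are named after their values were seen. Traes_7AL_F70DA9639 had a CPM of 46.4 to 51.9 in all 6 water libraries. It was at 42.3, 43.3 and 44.4 in irrigated LRM and 69.9, 58.7 and 65.4 in drought LRM, well apart, with a log2 fold change of 0.43 (SE 0.11, edgeR adjusted p = 0.0221). Traes_6DL_84E14AD8D lay between 25.2 and 28.4 with water spray, then at 18.6, 22.8 and 24.3 in irrigated LRM and at 31.6, 41.1 and 34.6 in drought LRM (log2 fold change 0.56, SE 0.14, edgeR adjusted p = 0.0245). In both genes irrigated LRM lay below, and drought LRM above, every water-sprayed library.

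In the reverse direction, genes chosen with LRM spray had a median CV of 7.13% in the water libraries, against 11.6% for the genes within the limits. In the libraries that chose them it was 4.71%, against 16.0%. None passed the edgeR test for drought with water spray, where 0.209% of all tested genes and 0.909% of those within the limits did. At an unadjusted p under 0.05 there were 8, against 12.4% of all tested genes, and DESeq2 called 0, against 2.26% of the genes it tested.

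Genes chosen as steady over spray under full irrigation had a median CV of 8.97% in the drought libraries, against 13.6% for the genes within the limits. Where they were chosen it was 3.74%, against 10.6%. By edgeR, 20 of the 200 differed between LRM and water under drought, 17 lower and 3 higher. That is 10%, against 17.5% of the genes within the limits and 5.91% of all tested genes. Within the limits 851 of 4864 passed, 220 of them higher. DESeq2 called 54 of the 200, against 9.72% of the genes it tested and 30.6% of those within the limits. The count of 20 became 0 without drought water 2, 2 without drought water 3, 7 without drought LRM 1 or drought LRM 2, and 3 without drought LRM 3. The 17.5% of the genes within the limits became 0%, 6.62%, 7.38%, 10.5% and 5.39% under these omissions, in the same order. By library totals 15 were called, 9 lower and 6 higher, against 805 of the 4864, 378 of them higher. Chosen by TMM-scaled CV, 6 (3%) were called, 4 of them higher.

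The 2 of these that fell most, named after their values were seen, were the only ones past a 2-fold change. Traes_2BL_BD5F3380A held 27.8 to 30.5 CPM over the 6 irrigated libraries. It was at 14.6, 18 and 19.9 in drought water and at 7.85, 5.76 and 10.7 in drought LRM, a log2 fold change for LRM of -1.21 (SE 0.20, edgeR adjusted p = 0.0131). Traes_2AL_A26170C43 held 19.1 to 20.6 CPM when irrigated, then 8.37, 9.79 and 12.1 in drought water and 4.89, 3.82 and 6.73 in drought LRM (log2 fold change -1.08, SE 0.21, edgeR adjusted p = 0.0205). Both were steady across spray when watered, lower in every drought library, and lowest in drought LRM, without overlap.

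Among the 3 that rose, Traes_3B_CDAE30EB7 had 251 to 268 CPM over the irrigated libraries, 367, 313 and 274 in drought water and 575, 578 and 504 in drought LRM (log2 fold change for LRM 0.69, SE 0.13, edgeR adjusted p = 0.0186). Traes_3AS_AE3D5013D followed the same order, with 282 to 303 CPM when irrigated, 420.4, 359 and 319.9 in drought water and 621, 541 and 541 in drought LRM (log2 fold change 0.53, SE 0.13, edgeR adjusted p = 0.043). The third, Traes_2AL_92939B028, had 28.8 to 32.2 CPM when irrigated, 52.8, 46.7 and 32.7 in drought water and 72.3, 81.7 and 77.2 in drought LRM. Its log2 fold change for LRM was the largest of the 3, at 0.70 (SE 0.15, edgeR adjusted p = 0.0287). Every drought LRM library was above every drought water library in all 3.

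Genes chosen as steady over spray under drought had a median CV of 6.98% in the irrigated libraries, against 10.9% for the genes within the limits. Where they were chosen it was 4.66%, against 14.2%. None passed the edgeR test for LRM with full irrigation, where 0.0% of all tested genes did. At an unadjusted p under 0.05 there were 8, against 10.1% of all tested genes, and DESeq2 called 0, against 0.79% of the genes it tested.

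**Figure D5:**
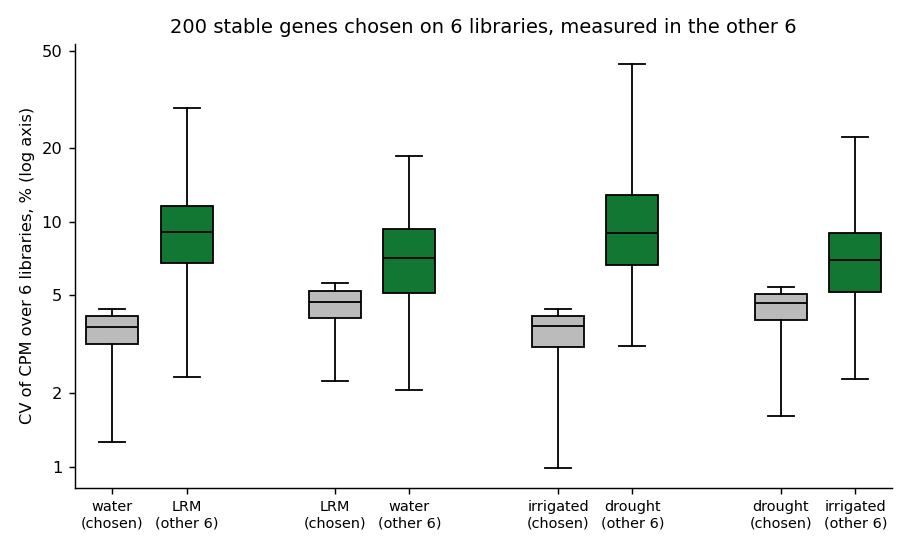
CV of CPM over 6 libraries (percent, log axis) of 200 genes chosen on 6 libraries, in the libraries that chose them (grey) and in the other 6 (green), for the 4 choices; boxes give the median and quartiles, whiskers the lowest and highest gene. The medians lie between 3.73% and 4.71% where the genes were chosen, which the choice fixes as low, and between 6.98% and 9.08% in the other libraries.

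The 4 choices overlapped in part. The water and LRM choices shared 31 genes, or 15.5% of each, and the irrigated and drought choices 27, or 13.5% of each. Of the 200 genes chosen on all 12 libraries, 9 were taken by all 4 of the 6-library choices, 23 by 3, 85 by 2, 52 by 1 and 31 by none. The 5 of lowest CV described first were among the 9.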

How the data were processed

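The authors deposited a table of raw read counts per gene identifier, 1 column a library, and a further table with no stated unit, taken here as FPKM because each value is a count over the library total times 1 constant per gene. Per the submitters' processing notes FastQC, HISAT2, StringTie and DESeq2 were used; no version, genome build or strand setting is stated there. Library totals ran from 17541561 to 47305447 counts. Among the FPKM values, 173 cells, 1 of them in the 200 genes, were 1000 times the value their count implies and were divided by 1000. None (0) of the identifiers matched the RefSeq gene table at hand.

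The 200 genes were chosen by the CPM rule given above. Counts were tested with edgeR 4.0.16 in R 4.3.3 (TMM, filterByExpr, quasi-likelihood fit of 4 group means, Benjamini-Hochberg over all tested genes, threshold 0.05), checked on simulated data, with DESeq2 1.42.0 (Wald test) as an alternative. Tests on 6 libraries were fitted to those libraries alone. The counting CV is that of Poisson counts at each library's depth. Genes named are those of lowest CV, nearest the CV limit, of highest and lowest mean CPM, of highest and lowest fitted drought change, and the pair of near-identical identifiers; all others were named after their values were seen. The members and lists were chosen with earlier results of these data known. Alternatives were the scaling, test, filter, CV measure, abundance floor, libraries left out (each in turn, and together 3 that stood apart in earlier results) and a replicate block. CPM is the count over the library total, on the usual counts-per-million scale.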

Additional observations from a re-analysis of the deposited data

How the results depend on the processing

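The count of the 200 genes called for drought with LRM spray, 14, went to 0 by library totals and by library sizes from the 200 genes, to 37 with the DESeq2 test, to 6 without a filter, to 6 when the 2 groups were fitted alone, and to between 2 and 14 without single libraries. DESeq2 called 5 for LRM under drought and 3 for the difference of drought changes, against 0 each. For genes chosen on 6 libraries, the 53 drought calls with LRM spray became 18 by library totals, 7 when chosen by TMM-scaled CV, and 14 to 54 without single libraries. The 20 LRM calls under drought became 54 with DESeq2, 6 when chosen by TMM-scaled CV, and 0 to 17 without single libraries. Calls over all tested genes also moved without single libraries. Beside the counts of 14, 53 and 20, they were 6745 to 8464 (from 9869), 5244 to 8171 (from 8489) and 0 to 3321 (from 3265). Deviations of same-numbered libraries of different groups had correlations from -0.44 to 0.59, above 0.1 in 7 of 18 pairs. Different-numbered pairs ran from -0.60 to 0.47, above 0.1 in 15 of 36, so the numbers were not taken as pairs. With a replicate block the counts of 53 and 20 became 34 and 10. Of the 200 genes the rule kept 34 on TMM-scaled CPM, 31 on DESeq2-scaled counts, 95 with a floor of 50 CPM, 73, 98, 56 and 100 on the water, LRM, irrigated and drought libraries alone, 130 without irrigated water 1, irrigated LRM 1 and drought LRM 2, and 153 to 189 without single libraries. The cause of these moves was not tested. The drought log2 fold change with LRM spray turned negative without irrigated LRM 1 and without those 3 libraries in Traes_5DS_3FA446382 (-0.050 and -0.055) and Traes_7DS_7EECD7F6A (-0.0014 and -0.0073); without single libraries their highest values were 0.042 and 0.015. The other 115 counts under an alternative stayed within 1.5 times or at 0. Counts at the floor of 20 CPM carry a counting CV of up to 3.77%, which limits how far CVs below that can be ranked.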

Other observations

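In the deposited FPKM table, Traes_1DS_7742A4A05, which ranked 47 by CV, is listed at 83055 in drought water 1 and at 74.4 to 91.3 in the other 11 libraries. Its count there was 3941, within the 1426 to 4160 of the other libraries. Read as deposited, its FPKM had a CV of 342%, and with that cell divided by 1000 a CV of 5.12%. A search for steady genes on the FPKM table as it stands would miss it.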
